A study of Mus musculus with 6 samples.

Results

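Integrins are cell surface receptors built from 1 alpha and 1 beta chain, and the genes described here encode 10 such chains that hematopoietic stem and progenitor cells or their blood cell progeny are known to carry: Itga4, Itga5, Itga6, Itga9, Itgal, Itgam, Itgb1, Itgb2, Itgb3 and Itgb7. Every probe set that the array's probe table assigns to 1 of these symbols and to no other gene was taken. That gave 27 of the 45037 probe sets that are not controls. Of these, 16 probe sets from 8 genes lay at or above the median brightness of the array, an intensity of 143, and were tested. The 3 probe sets of Itga9 and the 1 of Itgam lay below it and are given as values only.

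The study asked how a lower dose of Erg, an ETS family transcription factor, changes gene expression in stem and progenitor cells of the bone marrow. Cells with the surface phenotype LSK (lineage-negative, Sca-1-positive, Kit-positive) were sorted from 3 adult mice on a mixed 129-B6 background, numbered 278, 279 and 281. All 3 mice had the genotype Mx1Cre;Ergkd/+;R26Y, so both groups share the Cre transgene, the 1 Erg knockdown allele and the YFP reporter. From each mouse, YFP-positive cells form the group labelled Erg-restored and YFP-negative cells the group labelled Erg-knockdown, which gives 3 arrays a group and 2 arrays a mouse. Mx1 is an interferon-responsive promoter, and the groups are those cells in which Cre did or did not act. The Erg dose therefore cannot be told apart from recombination itself, YFP expression or how readily a cell recombines.

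Alpha and beta chains reach the cell surface as pairs. In blood-forming cells the beta1 chain pairs with alpha4, alpha5, alpha6 or alpha9 to hold cells to VCAM-1, fibronectin, laminin or osteopontin, and alpha4 can also pair with beta7, which binds MAdCAM-1 in gut homing. The beta2 chain with alphaL or alphaM forms the leukocyte integrins LFA-1 and Mac-1, which bind ICAM-1 and, for Mac-1, complement fragments. The beta3 chain pairs with alphaIIb (Itga2b) as the fibrinogen receptor of platelets and with alphaV (Itgav) as a vitronectin receptor.

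Erg did not show the labelled reduction on these arrays. Its brightest probe set, 1440244_at, read 2731, 2901 and 2659 in restored-labelled cells of mice 278, 279 and 281 and 2970, 2754 and 2706 in the knockdown-labelled cells. The difference was 0.024 ± 0.089 on the log2 scale (knockdown-labelled minus restored-labelled, SE, n = 3 mice, limma adjusted p = 0.954). The second probe set, 1425370_a_at, differed by -0.11 ± 0.088 (adjusted p = 0.818). The lower end of its 95% interval corresponds to a reduction of 22.1%, against about 40% in the labels. Directions between groups below therefore follow the labels, and the part of the Erg transcript that these probe sets read was not analysed here. The arrays had mean intensities of 1034 to 1075. The restored-labelled array of mouse 279 stood apart in the 3′ to 5′ signal ratio of actin and GAPDH, a sign of RNA quality, at a mean log2 ratio of 0.71 against 0.47 to 0.54 on the others. It was the highest or lowest of the 6 arrays for 58.2% of all probe sets tested and for 10 of the 16 integrin probe sets. Of the 8 LSK and stem cell markers looked for, 6 had a probe set of their own (Kit, Cd34, Flt3, Slamf1, Cd48 and Procr), and all 6 lay above the filter. In sorted populations measured in bulk, fewer cells of a type and less RNA per cell cannot be told apart.

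RefSeq promoter windows, the 250 bases before the annotated start on GRCm38.p6, were matched for 6 of the 10 genes (Itga4, Itga5, Itga9, Itgam, Itgb1 and Itgb7). They were searched on both strands for GGAA, the core that ETS factors such as Erg bind, and for AGGAAG, which holds a GGAA. GGAA occurs in 93.4% of the 32851 mouse windows of this length, with a median of 3 matches, so its presence sets no gene apart. Itga5 held 8 matches, a number reached by 1.45% of windows. Itgam and Itgb1 held 4 each, Itga9 held 2, and Itga4 and Itgb7 held 1 each. A count of 1 or fewer is found in 23.2% of windows. AGGAAG, present in 29.5% of windows, occurred 2 times in Itgb1 and 1 time each in Itgam and Itgb7. It was not in the windows of Itga4, Itga5 or Itga9. For AGGAAG, 93.8% of windows hold 1 match or fewer. Itga5 and Itga4 are printed as the windows with the most and the fewest GGAA matches, with Itga2b, the platelet partner of Itgb3, which held 6 GGAA matches (6 or more in 8.69% of windows) and 2 of AGGAAG. Capitals mark GGAA or its reverse complement TTCC, each sequence runs 5′ to 3′ on the gene's strand, and a match describes letters and not a bound site. The windows lie at chr2:79255176-79255425 on the plus strand for Itga4, chr15:103366792-103367041 on the minus strand for Itga5 and chr11:102469884-102470133 on the minus strand for Itga2b.
Itga4: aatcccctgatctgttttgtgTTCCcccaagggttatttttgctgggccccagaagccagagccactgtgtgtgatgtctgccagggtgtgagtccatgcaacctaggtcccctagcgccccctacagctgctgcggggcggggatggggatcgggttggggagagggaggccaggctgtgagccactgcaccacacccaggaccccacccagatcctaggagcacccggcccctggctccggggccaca
Itga5: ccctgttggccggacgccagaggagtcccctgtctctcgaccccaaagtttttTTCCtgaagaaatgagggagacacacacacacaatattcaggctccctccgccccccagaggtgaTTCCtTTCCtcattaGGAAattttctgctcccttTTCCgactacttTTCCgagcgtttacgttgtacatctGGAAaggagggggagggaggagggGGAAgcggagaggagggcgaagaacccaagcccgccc
Itga2b: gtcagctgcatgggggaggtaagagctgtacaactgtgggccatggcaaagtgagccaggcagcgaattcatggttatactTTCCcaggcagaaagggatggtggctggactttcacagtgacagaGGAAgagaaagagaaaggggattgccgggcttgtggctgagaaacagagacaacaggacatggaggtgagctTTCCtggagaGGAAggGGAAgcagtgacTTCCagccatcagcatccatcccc

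No integrin chain differed between the groups by the test. With limma and Benjamini-Hochberg adjustment over 22519 probe sets, the adjusted p-values of the 16 integrin probe sets lay between 0.799 and 0.990. None of the 22519 passed an adjusted p of 0.05 (0%), and the smallest adjusted p was 0.793. At an unadjusted p below 0.05 the knockdown-labelled cells were higher at 4.75% and lower at 1.33% of all probe sets tested, 1369 in all, and 0 of the 16 integrin probe sets were among them in either direction. The integrin probe sets were split evenly, 8 higher and 8 lower, with a median difference of 0.0097 beside 0.020 over all probe sets tested. With each array centred on its median, 4 were higher and 12 lower, and the median of all probe sets moved to -0.087, and the small positive differences of the brightest Itga4, Itga6 and Itgb1 probe sets turned negative. Of the probe sets at unadjusted p below 0.05, 78.1% were higher with the values as deposited, 49.3% after quantile normalization and 34.9% after centring. The sign was the same in all 3 mice for 3 of the 16 integrin probe sets, against 31.2% of all tested. The groups did not overlap for 1 of the 16, against 14% of all tested. With 3 mice an exact sign-flip test of a single gene cannot go below p = 0.25. The intervals given for single chains show how large a difference 3 mice leave possible.

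**Figure D1:**
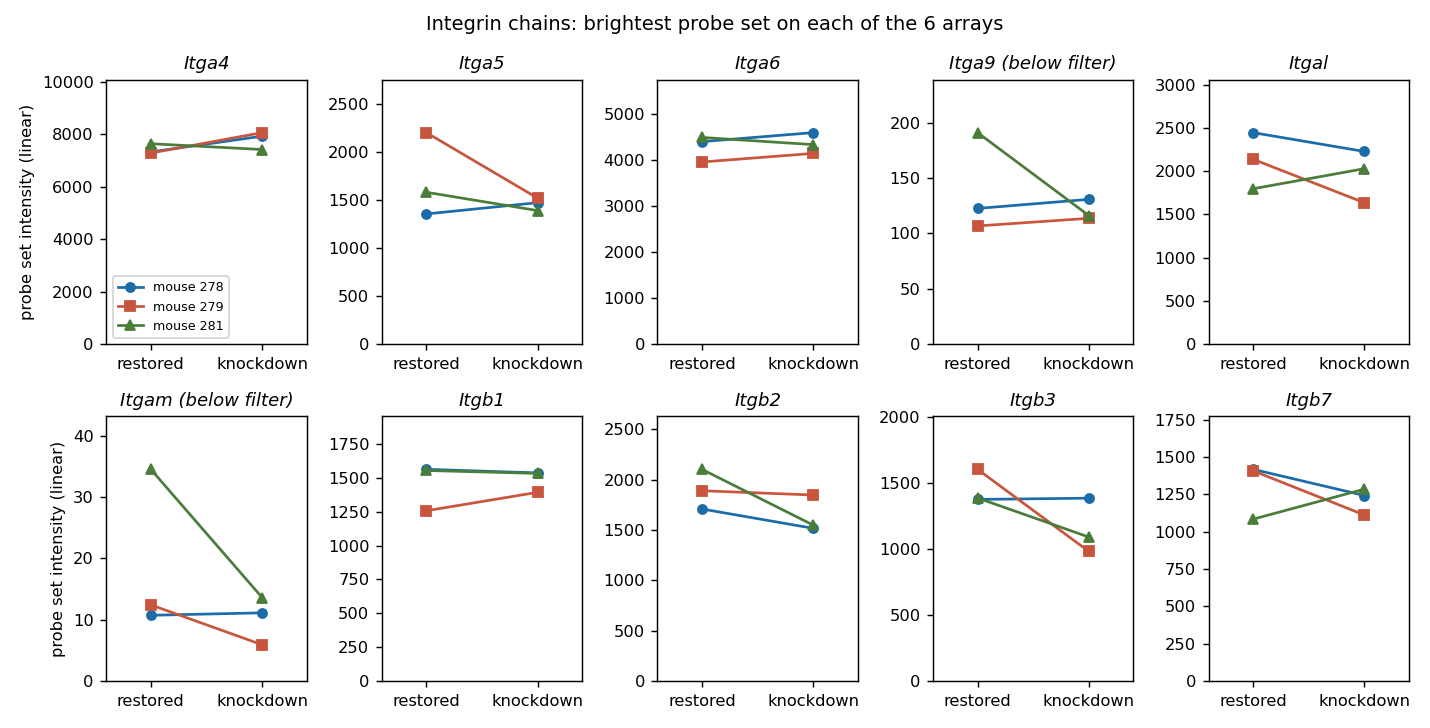
Intensity (linear scale, from 0) of the brightest probe set of each of the 10 integrin genes on the 6 arrays, with 1 line for each mouse joining its restored-labelled and knockdown-labelled cells. Lines run in different directions in different mice for most chains, Itgb2 reads lower in the knockdown-labelled cells of all 3 mice, and Itga9 and Itgam lie below the filter of 143 in mean level; each panel has its own scale.

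The alpha4 chain, the VCAM-1 receptor through which progenitors are held in the marrow, was read by 5 probe sets. The brightest, 1436037_at, gave 7327, 7284 and 7639 in restored-labelled cells of mice 278, 279 and 281 and 7926, 8061 and 7419 in the knockdown-labelled cells. The knockdown-labelled value was the higher one in mice 278 and 279 and the lower one in mouse 281, and the groups overlapped. Group means were 7417 ± 194 and 7802 ± 339 (SD, n = 3 each), and the log2 difference was 0.072 ± 0.090 (SE, n = 3 mice, adjusted p = 0.860). Its 95% interval, -0.18 to 0.32, was among the narrower ones of the family.

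A dimmer Itga4 probe set, 1450155_at, was the single integrin probe set above the filter whose groups did not overlap. It read 1316, 796 and 1143 in restored-labelled cells and 1338, 1429 and 1457 in the knockdown-labelled cells. All 3 restored-labelled values lay under the lowest knockdown-labelled value, but the gap in mouse 278 was only 0.023 on the log2 scale, against 0.83 in mouse 279 and 0.35 in mouse 281. The mean difference was 0.40 ± 0.18 (95% interval -0.12 to 0.92, unadjusted p = 0.0972, adjusted p = 0.799). Without mouse 279 it was 0.18, and without mouse 278 it was 0.59. The array with the low value, 796, is the restored-labelled array of mouse 279, whose 3′ to 5′ ratio is given above; the part of RNA quality in the difference was not tested. The other Itga4 probe sets did not repeat the difference at that size. Probe set 1421194_at differed by -0.011 ± 0.11 (adjusted p = 0.984) and 1456498_at by 0.26 ± 0.22 (adjusted p = 0.824), the latter with values of opposite sign in mice 279 (0.77) and 281 (-0.20). Probe set 1427615_at lay below the filter, at 50.7 to 87.2, with differences of -0.33, 0.63 and -0.056.

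The fibronectin receptor chain alpha5 was set apart on 1 array. Probe set 1423267_s_at of Itga5 read 1357, 2204 and 1583 in restored-labelled cells and 1475, 1521 and 1392 in the knockdown-labelled cells. The restored-labelled array of mouse 279 was the highest by a wide margin, the other 5 arrays lay within 1357 to 1583, and the groups overlapped. The log2 difference was -0.20 ± 0.16 (95% interval -0.63 to 0.23, adjusted p = 0.819), and without mouse 279 it was -0.032. The second probe set above the filter, 1458996_at, differed by 0.11 ± 0.16 (adjusted p = 0.873), so these 2 probe sets of the gene had mean differences of opposite sign. Below the filter, 1457561_at read 96.6 to 176 over the 6 arrays and differed by 0.36, -0.28 and -0.56 in mice 278, 279 and 281. Probe set 1423268_at read 48.1 to 84.1 and differed by 0.042, -0.084 and -0.27.

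The laminin receptor chain alpha6, which is used as a surface marker of stem cells, had the narrowest interval of the 16 probe sets tested. Itga6 probe set 1422445_at read 4394, 3952 and 4484 in restored-labelled cells and 4589, 4138 and 4329 in the knockdown-labelled cells. The values of the groups were interleaved, and both arrays of mouse 279 were the lowest of the 6. The log2 difference was 0.026 ± 0.084 (adjusted p = 0.945), with a 95% interval of -0.21 to 0.26. A second probe set, 1422444_at, was more variable, with differences of 0.090, -0.25 and 0.34 in mice 278, 279 and 281 and a mean of 0.059 ± 0.15 (adjusted p = 0.928).

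The alpha9 chain, a receptor for osteopontin and tenascin, was dim in these cells. The brightest of its 3 probe sets, 1420860_at, read 123, 107 and 191 in restored-labelled cells and 131, 114 and 116 in the knockdown-labelled cells. Only the restored-labelled array of mouse 281 left the range of 107 to 131. The within-mouse differences were 0.083, 0.080 and -0.65, and no test was made below the filter. Probe set 1450029_s_at, at 48.3 to 153, differed by 0.36, -0.48 and 0.95, and 1460285_at, at 47.1 to 103, by 0.15, 0.065 and -0.24. The 3 probe sets did not share a sign in mice 279 and 281.

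The beta1 chain, the shared partner of alpha4, alpha5, alpha6 and alpha9, was read by 6 probe sets of very unlike brightness. The brightest, 1452545_a_at, read 1564, 1258 and 1555 in restored-labelled cells and 1537, 1394 and 1534 in the knockdown-labelled cells. Mouse 279 was low in both groups and mice 278 and 281 were nearly level, so the groups overlapped. The log2 difference was 0.034 ± 0.089 (95% interval -0.22 to 0.28, adjusted p = 0.932). Probe set 1426918_at read 1102, 915 and 1162 in restored-labelled cells and 1162, 1085 and 1238 in the knockdown-labelled cells. In all 3 mice the knockdown-labelled value was the higher one, with overlapping groups and a mean difference of 0.14 ± 0.088 (adjusted p = 0.804). With mouse 279's restored-labelled array left out it was 0.035, and with each array centred on its median 0.029. Probe set 1427771_x_at, the third above the filter, differed by -0.0066 ± 0.10 (adjusted p = 0.990).

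Below the filter, Itgb1 had the widest differences of the family. Probe set 1426920_x_at read 31.6, 26.5 and 38.3 in restored-labelled cells and 48.8, 105 and 124 in the knockdown-labelled cells, and the groups did not overlap. Probe set 1426919_at read 54.2, 32.9 and 30.3 against 37.7, 77.7 and 142, with the opposite order in mouse 278. With no filter on low values, 1426920_x_at differed by 1.11 on the log2 scale (unadjusted p = 0.0100, adjusted p = 0.817). The dimmest, 1438119_at, read 4.6 to 14.1, with differences of 0.094, -0.33 and 0.12. These readings are below the median of the array, while the 3 brighter probe sets of the same gene differed by 0.14 or less.

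The beta7 chain had differences of opposite sign in different mice. Itgb7 probe set 1418741_at read 1418, 1408 and 1084 in restored-labelled cells and 1242, 1112 and 1285 in the knockdown-labelled cells. The restored-labelled values of mice 278 and 279 were the highest of the 6 and that of mouse 281 the lowest. The log2 difference was -0.094 ± 0.15 (95% interval -0.50 to 0.32, adjusted p = 0.887).

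Chains were paired through their changes across the arrays, since intensities of different probe sets share no scale and the level of an alpha chain cannot be set against that of a beta chain. Itga4 differed by 0.11, 0.15 and -0.042 in mice 278, 279 and 281, while its partner Itgb1 differed by -0.024, 0.15 and -0.020 and its other partner Itgb7 by -0.19, -0.34 and 0.24. Itga4 and Itgb7 thus had opposite signs in all 3 mice, and Itga4 and Itgb1 had the same sign in mice 279 and 281. Itga5 differed by 0.12, -0.53 and -0.18, opposite in sign to Itgb1 in mice 278 and 279. Itga6 shared the sign of Itgb1 in mice 279 and 281, with both chains at their lowest level on the restored-labelled array of mouse 279. These signs hold for the brightest probe set of each chain in 3 mice with the values as deposited, and none of the differences passed the test. Itga4 1450155_at differed by 0.023, 0.83 and 0.35 and Itgb1 1426918_at by 0.075, 0.24 and 0.090, all positive. At 1450155_at Itga4 thus shared the sign of Itgb7 in mouse 281, and at 1426918_at Itgb1 shared that of Itga5 in mouse 278.

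**Figure D2:**
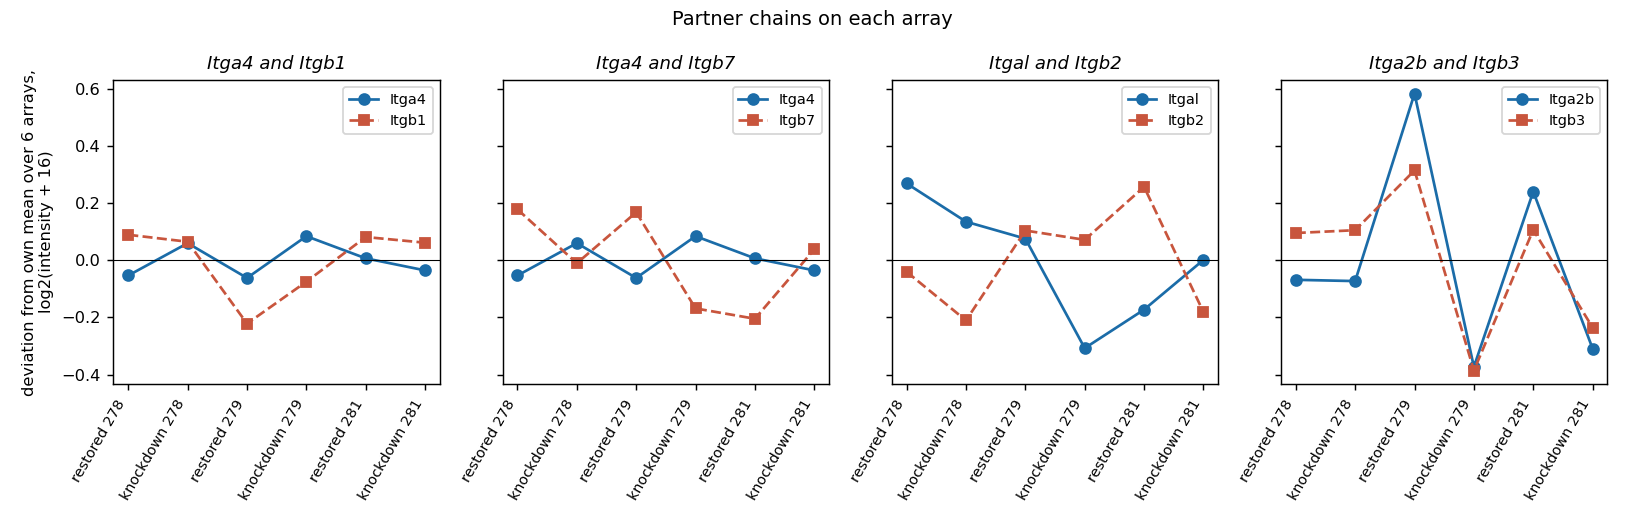
Deviation of each chain's brightest probe set from its own mean over the 6 arrays, log2(intensity + 16), for 4 partner pairs, with the arrays on the horizontal axis by label and mouse. Itga2b and Itgb3 both stand highest on the restored-labelled array of mouse 279 and lowest on the knockdown-labelled array of that mouse, whereas Itga4 and Itgb7 run opposite ways within each mouse.

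The leukocyte integrin chains alphaL and beta2 both had lower mean levels in the knockdown-labelled cells, short of the test. Itgal probe set 1435560_at read 2445, 2137 and 1797 in restored-labelled cells and 2228, 1635 and 2029 in the knockdown-labelled cells. It was lower in the knockdown-labelled cells of mice 278 and 279 and higher in those of mouse 281, and the log2 difference was -0.11 ± 0.14 (95% interval -0.50 to 0.27, adjusted p = 0.858). A dimmer Itgal probe set, 1425367_at, differed by -0.24 ± 0.14 (adjusted p = 0.799). Its restored-labelled array of mouse 279, the one that stands apart in the 3′ to 5′ ratio, read 366 against 176 to 245 on the other 5. The difference was -0.0093 without that array and -0.089 without mouse 279.

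The beta2 chain, on which both LFA-1 and Mac-1 depend, was lower in the knockdown-labelled cells of every mouse. Itgb2 probe set 1450678_at read 1707, 1888 and 2101 in restored-labelled cells and 1515, 1846 and 1547 in the knockdown-labelled cells. The groups overlapped, because the knockdown-labelled value of mouse 279 exceeded the restored-labelled value of mouse 278. The log2 difference was -0.21 ± 0.12 (95% interval -0.54 to 0.11, unadjusted p = 0.141, adjusted p = 0.799). It was -0.10 without mouse 281, -0.30 without mouse 279 and -0.32 with each array centred on its median. Within the mice, Itgal and Itgb2 had the same sign in mice 278 and 279 but not in mouse 281, where Itgal differed by 0.17 and Itgb2 by -0.44.

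The alphaM chain of Mac-1, which marks neutrophils, monocytes and macrophages and is part of many lineage depletion cocktails, was close to the floor. Itgam probe set 1422046_at read 10.7, 12.4 and 34.5 in restored-labelled cells and 11.1, 5.9 and 13.6 in the knockdown-labelled cells. The restored-labelled array of mouse 281 gave the highest value, the other 5 arrays stayed at or below 13.6, and the groups overlapped. The within-mouse differences were 0.021, -0.37 and -0.77 in mice 278, 279 and 281, and no test was made below the filter. Itgam and its partner Itgb2 had the same sign in mice 279 and 281 but not in mouse 278. At this level the Itgam signs rest on small intensities. Other myeloid transcripts were present. The summed intensity of 12 neutrophil and monocyte markers was 58599 to 94810 in the restored-labelled and 65633 to 96843 in the knockdown-labelled cells. All 12 lay above the filter. The mice went different ways. In mouse 278 this sum went from 72540 in restored-labelled to 71126 in knockdown-labelled cells. It rose from 58599 to 96843 in mouse 279 and fell from 94810 to 65633 in mouse 281. The summed intensity of 8 macrophage markers was 3972 to 4743 against 2479 to 4326, with Mrc1, C1qa and C1qc below the filter and no marker of either list at 0 on all arrays. All 5 macrophage markers above the filter had lower means in the knockdown-labelled cells, with a median difference of -0.30, but the mice differed. From restored-labelled to knockdown-labelled cells the sum went from 4245 to 3371 in mouse 278, 3972 to 4326 in mouse 279 and 4743 to 2479 in mouse 281. This sum includes Vcam1, which rose from 687 to 2070 in mouse 279. Adgre1 and Cd68 also rose in that mouse, while C1qb and Cd163 fell. Below the filter, C1qa differed by -0.94, C1qc by -0.71 and Mrc1 by -0.83, each lower in the knockdown-labelled cells of every mouse. The groups did not overlap for C1qa and C1qc and overlapped for Mrc1. Of the 5 macrophage markers above the filter, C1qb, a complement chain of macrophages, was at an unadjusted p below 0.05, at -1.39 (adjusted p = 0.793). Over all probe sets tested, 1.33% were lower at this p. The C1qb groups overlapped, and its highest value, 908, lay on the restored-labelled array of mouse 279. Its brightest probe set differed by -1.66, -2.01 and -0.50 in mice 278, 279 and 281. The part of myeloid cells in the Itgb2 values was not tested.

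Of the integrin genes, the platelet chain beta3 had the largest mean difference toward lower levels among the probe sets tested. Itgb3 probe set 1455257_at read 1375, 1602 and 1385 in restored-labelled cells and 1384, 980 and 1090 in the knockdown-labelled cells. The knockdown-labelled arrays of mice 279 and 281 were the lowest of the 6, and mouse 278 showed no gap between its populations. The group means were 1454 ± 129 and 1151 ± 209 (SD, n = 3 each), and the log2 difference was -0.34 ± 0.17 (95% interval -0.81 to 0.12, unadjusted p = 0.108, adjusted p = 0.799). It was -0.17 without mouse 279, -0.27 without the restored-labelled array of that mouse, and -0.055 with array weights, all in the same direction. A second Itgb3 probe set, 1421511_at, lay below the filter, at 34.8 to 86.8. It differed by -0.41, -0.84 and 0.50 in mice 278, 279 and 281, so its sign in mouse 281 was opposite to that of 1455257_at.

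The alphaIIb chain had a profile much like that of beta3 at the brighter Itgb3 probe set. Itga2b, which is not one of the 10 chains but is the platelet partner of beta3, read 1445, 2279 and 1793 in restored-labelled cells and 1441, 1167 and 1221 in the knockdown-labelled cells at probe set 1417758_at. Its groups did not overlap, although mouse 278 again showed almost no gap. Differences in mice 278, 279 and 281 were -0.0044, -0.96 and -0.55 for Itga2b beside 0.0098, -0.70 and -0.34 for Itgb3. The mean for Itga2b was -0.50 ± 0.21 (95% interval -1.09 to 0.086, unadjusted p = 0.0767, adjusted p = 0.799). It was -0.28 without mouse 279, -0.34 without the restored-labelled array of that mouse, which holds the highest value, -0.75 without mouse 278 and -0.098 with array weights. The alphaV chain, the other partner of beta3, had a mean difference of the opposite sign, with 4911, 4918 and 5262 in the restored-labelled and 5473, 5715 and 5321 in the knockdown-labelled cells and a difference of 0.13 ± 0.090 (adjusted p = 0.811). With each array centred on its median that difference was 0.022.

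Markers of megakaryocytes and platelets were mostly lower beside the beta3 chain. Of 9 such markers, 8 had a probe set of their own and 7 lay above the filter, of which 6 were lower and 1 higher in the knockdown-labelled cells, with a median difference of -0.61. At an unadjusted p below 0.05, 3 were lower (Treml1 at -0.73 ± 0.12, Vwf at -0.68 ± 0.14 and Gp1bb at -0.61 ± 0.15), and none passed the adjusted threshold. Over all probe sets tested, 1.33% were lower at this p. The summed intensity of the 8 markers was 8496 to 10978 in the restored-labelled and 7914 to 9128 in the knockdown-labelled cells. Gp6 lay below the filter and no marker was at 0 on all arrays. In mouse 278 the sum was 8496 and 8448. Single markers moved both ways there, among them Ppbp (0.51), Gp9 (0.20), Gp5 (-0.098) and Gp1bb (-0.34). The part of megakaryocyte-lineage cells or transcripts in the Itgb3 value was not tested.

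**Figure D3:**
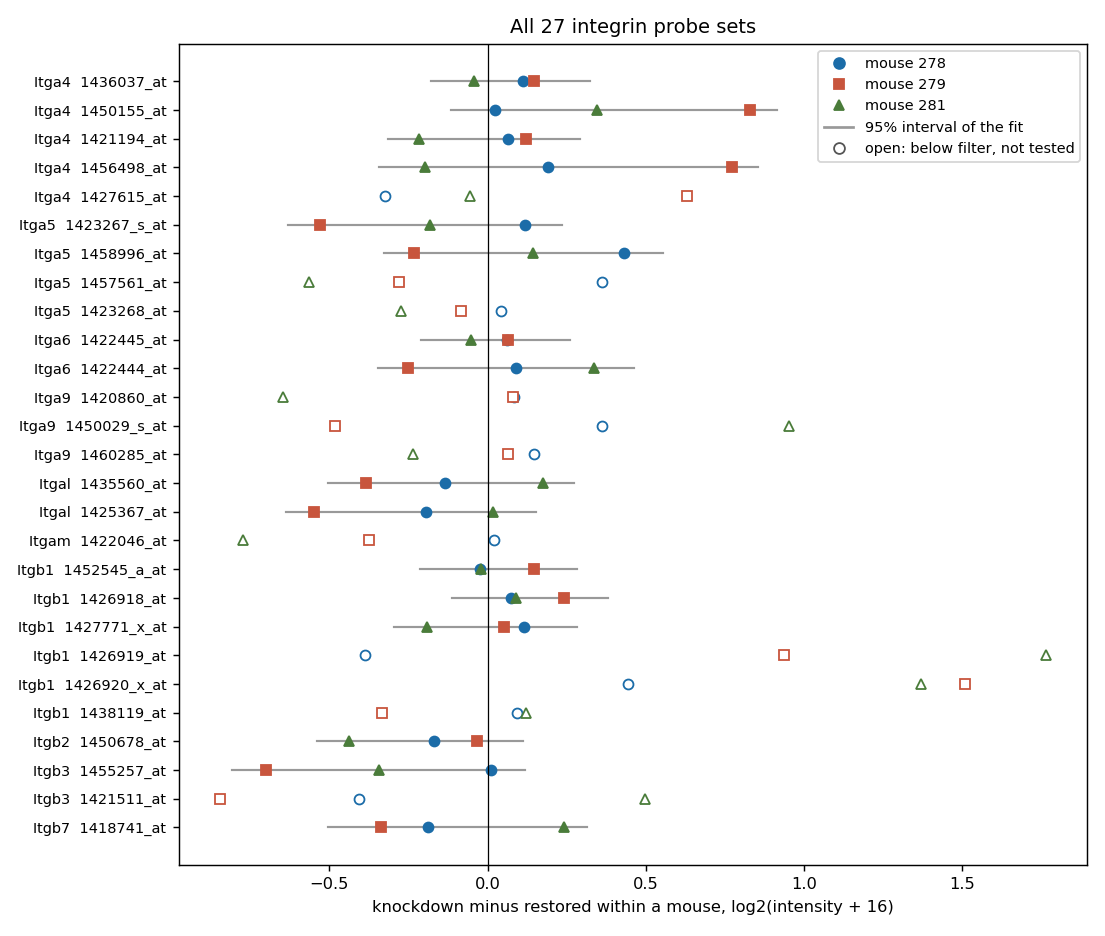
Difference between the knockdown-labelled and restored-labelled cells of each mouse, log2(intensity + 16), for all 27 integrin probe sets, with the 95% interval of the limma fit as a grey line for the 16 probe sets tested and open symbols for the 11 below the filter. Every interval spans 0, and the widest spread among mice is at dim probe sets such as 1426919_at of Itgb1, from -0.39 to 1.77.

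Of the 16 other integrin chains, 14 had a probe set of their own and 6 had one above the filter (Itga1, Itga2b, Itga3, Itgav, Itgax and Itgb5). At the brightest probe set, 4 were higher and 2 lower in the knockdown-labelled cells, with a median difference of 0.11, and 1 of the 6 reached an unadjusted p below 0.05 (higher; 4.75% of all probe sets tested did). That chain was beta5, which pairs with alphaV as a vitronectin receptor. Itgb5 probe set 1456133_x_at read 714, 720 and 597 in restored-labelled cells and 927, 990 and 860 in the knockdown-labelled cells. All knockdown-labelled values lay above all restored-labelled values, and the differences in mice 278, 279 and 281 were 0.37, 0.45 and 0.51. The mean was 0.44 ± 0.085 (95% interval 0.21 to 0.68, unadjusted p = 0.00663), but the adjusted p was 0.793. The other 3 probe sets of Itgb5, which read the same transcript and are no independent support, differed by 0.47 to 0.51 with no overlap of the groups. Over 15 alternative settings, 13 with all 4 probe sets and 2 with the brightest alone, the difference stayed between 0.34 and 0.59, and the smallest adjusted p, with array weights, was 0.0637. Without mouse 278, and likewise without mouse 281, 3 of the 4 kept an unadjusted p below 0.05.

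Itgb5 is also known from endothelial and other adherent cells, and endothelial markers were looked at beside it. Of 6 such markers, Emcn and Cldn5 lay above the filter and both were higher in the knockdown-labelled cells at an unadjusted p below 0.05, with neither past the adjusted threshold. Over all probe sets tested, 4.75% were higher at this p. Emcn is known from stem cells as well. Cldn5, a tight junction protein, read 83.1, 45.9 and 86.9 in restored-labelled cells and 291, 512 and 208 in the knockdown-labelled cells. These groups did not overlap, as at 14% of all probe sets tested. Cdh5, Kdr, Plvap and Stab2 lay below the filter and did not share 1 direction. Plvap differed by -0.51 and Stab2 by -0.40, both lower in the knockdown-labelled cells of all 3 mice, and Kdr by -0.053, while the 2 Cdh5 probe sets differed by 0.31 and 1.06. The summed intensity of the 6 was 1341 to 1385 in the restored-labelled and 1598 to 1956 in the knockdown-labelled cells, with no marker at 0 on all arrays. The higher sum came mainly from Emcn (group means 926 and 1125) and Cldn5 (72.0 and 337) themselves. The part of such cells in the Itgb5 value was not tested.

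**Figure D4:**
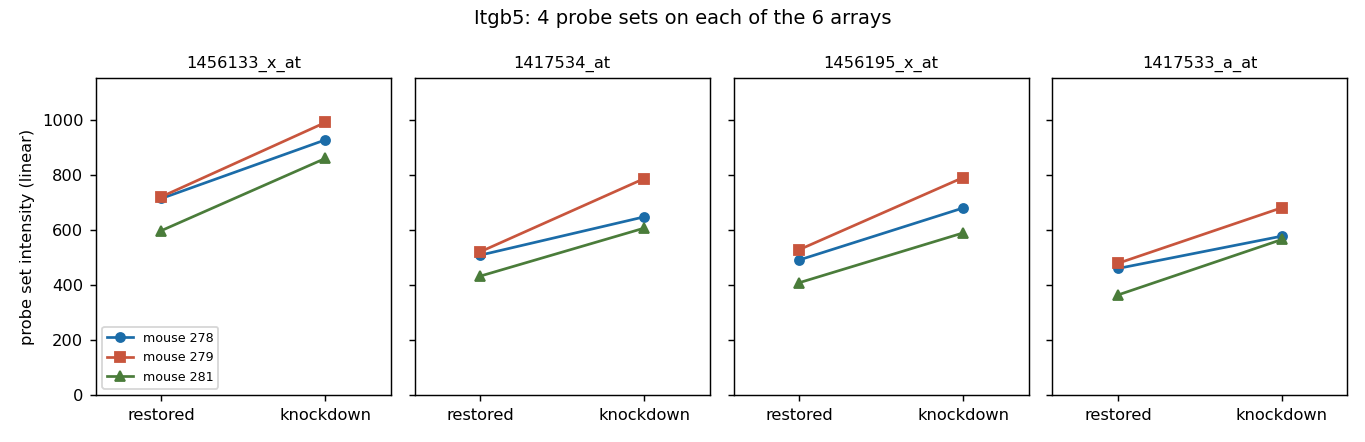
Intensity (linear scale, from 0) of the 4 Itgb5 probe sets on the 6 arrays, with 1 line for each mouse joining its restored-labelled and knockdown-labelled cells. In each panel each mouse's line slopes up toward the knockdown-labelled cells, and the 3 knockdown-labelled values lie above the 3 restored-labelled ones; the difference did not pass the adjusted threshold.

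Ligands and counter-receptors of these integrins had no member at an unadjusted p below 0.05. Of 22 such genes, 21 had a probe set of their own and 9 lay above the filter, with 2 higher and 7 lower in the knockdown-labelled cells and a median difference of -0.12. Vcam1, the cell-bound ligand of alpha4 beta1, read 1013, 687 and 2166 in restored-labelled cells and 914, 2070 and 466 in the knockdown-labelled cells at probe set 1448162_at. Its order was opposite in mice 279 and 281, and the mean difference was -0.25 ± 0.77 (adjusted p = 0.942). Icam1, the counter-receptor of LFA-1, differed by -0.12 ± 0.11 (adjusted p = 0.829). Vcam1 and Icam1 were singled out after their values were seen.

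Proteins that switch integrins on from inside the cell or link them to actin formed a list of 50 genes, of which 45 had a probe set of their own and 37 lay above the filter. Of the 37, 19 were higher and 18 lower in the knockdown-labelled cells, with a median difference of 0.0046. Rasgrp2, which encodes the exchange factor CalDAG-GEFI that activates Rap1 ahead of integrin activation in platelets and leukocytes, was the single gene at an unadjusted p below 0.05. That is 1 of 37 genes, beside 1.33% of all probe sets tested that were lower and 4.75% that were higher at this p, so the count does not set the list apart. Its probe set 1417804_at read 2916, 2784 and 2876 in restored-labelled cells and 2267, 2272 and 2144 in the knockdown-labelled cells. The groups were separated by a gap wider than the spread within either, and the log2 difference was -0.36 ± 0.084 (unadjusted p = 0.0135, adjusted p = 0.793). The other 2 Rasgrp2 probe sets above the filter differed by -0.28 and -0.34, with overlapping groups. Over 15 alternative settings the difference at 1417804_at stayed between -0.46 and -0.33.

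For 1 chain of each role, the 3 genes whose profile over the 6 arrays was most like it were found among the genes with a probe set above the filter (10823 beside Itga4 or Itgb3, 10824 beside Itgam), by Pearson correlation of log2 values. Itga4 was nearest to Zfp46 (r = 0.993), Tns1 (0.984) and Slc25a36 (0.982). Itgam was nearest to Abcc5 (0.983), Ctbs (0.955) and Abcc10 (0.951), and Itgb3 to Rab29 (0.993), Ocel1 (0.993) and 5033406O09Rik (0.992). Itgam lies close to the floor, and its profile rests mainly on the restored-labelled array of mouse 281 (34.5), where Abcc5, Ctbs and Abcc10 were also highest. With 6 arrays that share RNA quality and scaling, these values are a description only.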

How the data were processed

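Per the labels' protocols, Qiagen columns gave the RNA of the 6 sorted populations, and NuGEN Ovation V2 reagents amplified and labelled it for arrays. The authors deposited 1 linear intensity for each of 45101 probe sets on each array. How they summarized and normalized these intensities: not given in the sources used here. An older probe annotation gave 34945 of the probe sets 1 symbol, and all 27 integrin probe sets matched the mouse gene table by identifier.

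After 64 controls were left out, intensities were taken to log2(intensity + 16), which understates the change of dim genes. Probe sets whose mean log2 value reached the median, an intensity of 143, were tested by limma (version 3.58.1, under R 4.3.3; functions lmFit and eBayes, two-sided), with the mouse as a block and Benjamini-Hochberg adjustment over 22519 probe sets at a threshold of 0.05. The labels give the pairing: both populations came from the same mouse. The correlation of same-mouse deviations from the group means was 0.27, -0.071 and -0.21 for mice 278, 279 and 281. The fit was run before use on data simulated from the same model with independent noise. Those data held no array-wide effect, so the run cannot speak to RNA quality or scaling. An array holds no read depth, and precision is limited by there being 3 arrays a group.

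The integrin genes and all lists were chosen with earlier results of these data known. All integrin probe sets are described, the brightest of each gene in full. Of the integrin chain, ligand and activation lists, genes at an unadjusted p below 0.05 at their brightest probe set are named, with Itga2b and Itgav as partners of Itgb3, and for Itga4, Itgam and Itgb3 the 3 genes of most similar profile. Intensities of different chains were not set against each other. The marker sums add linear intensities of different probe sets, so the brightest members weigh most in them. Alternatives were the block, the scaling, the added value, the filter, 1 probe set a gene, the limma settings, array weights and the omission of each mouse or of 1 array.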

Additional observations from a re-analysis of the deposited data

How the results depend on the processing

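With 3 mice, differences of the size seen at most chains lie within the spread between mice. Over 15 alternatives, 0 probe sets of any gene passed the adjusted threshold, and the 229 tests of integrin probe sets gave limma adjusted p-values of 0.0961 or more. Of these tests, 211 kept their direction and 18 reversed it. The integrin probe sets at an unadjusted p below 0.05, 0 as reported, were 1 after centring on the median (Itgb3 at -0.45), 1 with no filter (Itgb1 1426920_x_at) and 3 with array weights, a fit that stopped before it converged (Itgal 1425367_at at -0.19, Itgb2 at -0.19 and Itga5 1458996_at at 0.37). Over all probe sets the number at an unadjusted p below 0.05, 1369 as reported, was 2705 with no filter, 833 with the upper 30%, 632 with 1 probe set a gene, 6584 with array weights and 573 without mouse 278. Without the replicate block, Itgb3 stayed at -0.34 with an adjusted p of 0.809, and the block changed no call. Reversed by centring were Itga4 (-0.035), Itga6 (-0.081), Itgb1 (-0.073) and Itga6 1422444_at (-0.048). Reversed by array weights were Itga5 (0.061), Itgb1 (-0.016), Itga4 1421194_at (0.042) and Itgb1 1427771_x_at (0.086). Leaving out mice or 1 array reversed Itga6 (range -0.030 to 0.064), Itgal (-0.26 to 0.020), Itgb1 (-0.068 to 0.063), Itgb7 (-0.26 to 0.027), Itga4 1421194_at (-0.076 to 0.092), Itga6 1422444_at (-0.080 to 0.21), Itgb1 1427771_x_at (-0.068 to 0.085), Itga4 1456498_at (-0.0025 to 0.48) and Itga5 1458996_at (-0.045 to 0.29). The cause of these reversals was not tested. The median over the integrin probe sets was -0.097 after centring, -0.10 with 1 probe set a gene, -0.046 without mouse 278 and 0.063 without mouse 281.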
